A study of Mus musculus with 18 samples.

Results

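This account concerns the effect of calorie restriction on liver gene expression that was common to a low-fat and a high-fat diet. It rests on 12 of the 18 arrays of the study, each from the liver of another male C57BL/6J mouse, an inbred laboratory strain, at 62 weeks of age. The 6 unrestricted arrays came from 3 mice that ate a low-fat diet without limit (LF, 10% fat) and 3 that ate a high-fat diet without limit (HF, 60% fat). The 6 restricted arrays came from 3 mice on each diet (LF+CR and HF+CR) whose ration was set by what the LF or HF mice ate, less 30% of the calories. All mice were housed alone, and the regimens began at 5 weeks of age, with 30 mice assigned to each group. The remaining 6 arrays came from mice with a running wheel and unlimited food (LF+Ex and HF+Ex), and their values are given only beside the others. Whether the mice were fed or fasted when the liver was taken, and at what hour, is not given in the sources used here.

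Calorie restriction without malnutrition extends life in mice, and the liver is a main site of its metabolic effects. Liver cells make cholesterol from acetyl-CoA through a chain of enzymes whose genes are switched on together by SREBP2, a transcription factor held in the endoplasmic reticulum while sterol is plentiful. The related factor SREBP1 drives the genes of fatty acid synthesis, and PPARα, a nuclear receptor for fatty acids, drives genes of fatty acid oxidation and lipid storage. Most liver proteins destined for the blood pass through the endoplasmic reticulum, where chaperones fold them and enzymes attach sugar chains.

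Of 14198 genes tested, 224 changed with restriction when diet was held as a covariate (1.58%, limma, adjusted p under 0.05), 113 of them higher (0.796%) and 111 lower (0.782%). Every one of the 224 had the same sign on both diets, and 217 (1.53%) also had an unadjusted p under 0.05 within each diet. The contrasts within diets have no array in common with each other, but they reuse the arrays that called the 224. The model also counts a difference between diets as spread, so genes of opposite sign could hardly be called. This agreement is thus largely set by the model and is a description. Averaging the contrasts within diets instead called 456 genes, of which 268 were shared by the same rule. The 217 of the reported fit are called shared genes here, 111 higher (0.782%) and 106 lower (0.747%). The 7 called genes that were not shared, Ankrd46, Ctsz, Ifnar2, Pcsk6, Selenbp1, Ssr4 and Zmynd8, had p between 0.0533 and 0.0714 on the diet where they missed. Dropping LF+CR 2 raised the 224 calls to 358, whereas dropping HF 2 left 147, dropping HF 3 left 134, dropping HF+CR 1 left 149 and dropping HF+CR 2 left 146. Centring each array on its median gave 82 higher against 133 lower genes in place of 113 against 111.

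The shared genes were led by the enzymes of cholesterol synthesis, which rose on both diets. Some enzymes that supply acetyl-CoA and build fatty acids also rose, Fasn and Acly more on low fat than on high fat. Of 26 chaperone and unfolded protein response genes of the endoplasmic reticulum, 6 rose, where 0.782% of all genes tested were shared and higher. The falling genes were smaller in effect and included proteins of the lipid droplet (Plin5, Fitm1, Fitm2, Mgll), carnitine and peroxisome genes (Slc22a5, Slc25a20, Crat, Pex11a) and the pantetheinase Vnn1. The median log2 change was 0.40 over the 111 higher genes and -0.35 over the 106 lower ones, against 0.02 over all genes tested. Changes past 1 on the log2 scale were seen for 14 of the higher and 5 of the lower genes.

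**Figure D1:**
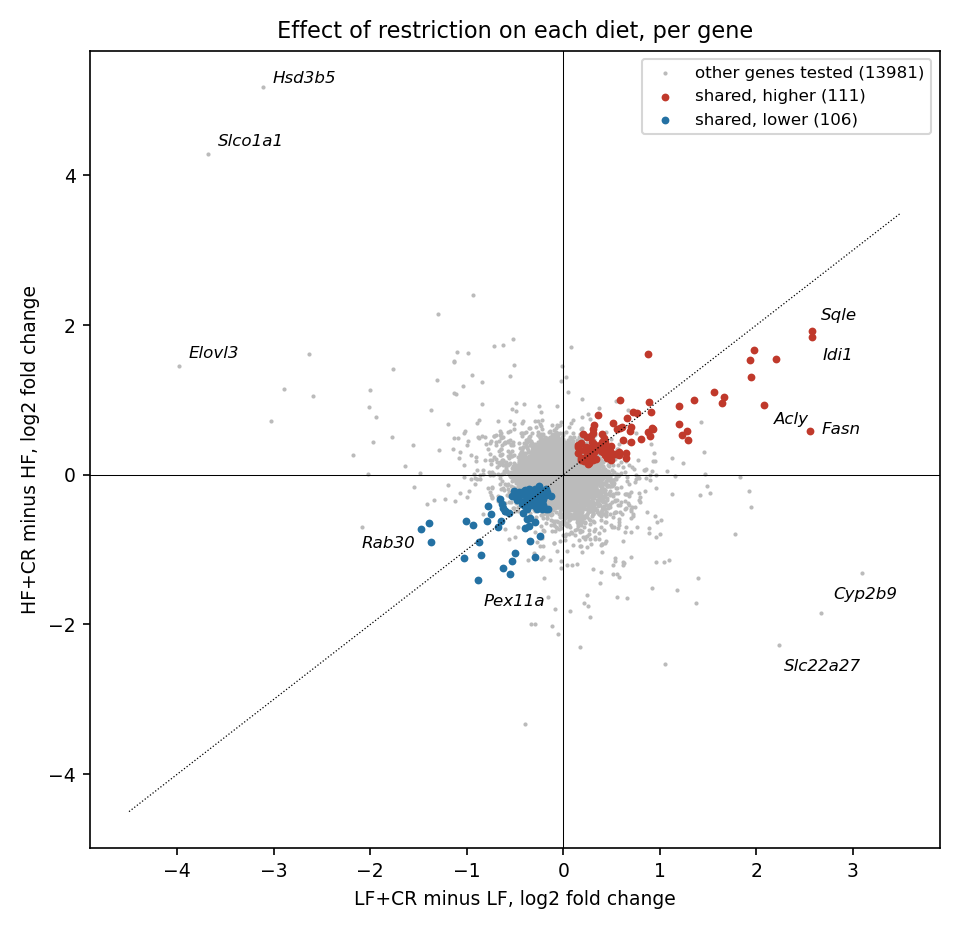
Log2 fold change for restriction on the low-fat diet (horizontal axis) and on the high-fat diet (vertical axis) for each of 14198 genes, with the 111 shared higher genes in red, the 106 shared lower genes in blue and the other genes in grey; the dotted line marks equal effects. Sqle and Idi1 lie far up near the line, Fasn and Acly lie below it, and the genes with the largest effects, such as Hsd3b5 and Slco1a1, lie in the quadrants of opposite sign.

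Genes moving the same way on both diets can be set beside genes moving in opposite directions. At an unadjusted p under 0.05 on each diet, 360 genes went the same way (2.54%) and 411 went opposite ways (2.89%). Across genes, which are not independent replicates, the effects on the diets had r = -0.18 and rho = -0.13, and 45% of genes had the same sign. That correlation rested on a few arrays, for without LF+CR 2 it was -0.01 and without LF+CR 2 and HF 1 it was 0.00407. A test of the difference between the diets called 582 genes (4.1%), of which 543 had opposite signs, but only 5 of the 217 shared genes, namely Fasn, Acly, Acsl3, Slc25a10 and Lyve1. The 582 became 289 on dropping LF 3, 337 on dropping LF+CR 1, 270 on dropping HF 1, 334 on dropping HF 3 and 358 on dropping HF+CR 2. The shared genes were chosen on the same arrays for the same sign on both diets, so their small number among the 582 is a description and not a test.

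The arrays of the shared genes were for the most part well separated. In 198 of the 217, the restricted arrays did not overlap the unrestricted arrays on either diet, 102 higher and 96 lower. Among all genes tested 490 (3.45%) were so separated in the same direction, 263 higher (1.85%) and 227 lower (1.6%). In 133 of the 217, all 6 restricted arrays lay beyond all 6 unrestricted arrays of either diet (80 higher and 53 lower), compared with 231 of all genes (1.63%). Both measures use the same values as the test that chose the genes and describe them only.

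The liver identity of the samples was plain on every array. Albumin (Alb) read 18751 to 21654, where intensities over all probe sets and arrays ran from 31.08 to 21654. The fat-cell hormone Adipoq stayed at 51.2 to 76, too dim to pass the filter, whose threshold lay between 88.2 and 97.6 on each array. Of 12 marker lists for liver cell types and possible contaminants, none had a summed level whose restricted and unrestricted arrays separated in the same direction on both diets. Erythroid markers (3 tested) separated on both diets in opposite directions. They summed to 1068 to 1242 on LF, 646.8 to 729.8 on LF+CR, 1011 to 1106 on HF and 1410 to 1548 on HF+CR. Some other lists separated on 1 diet only. Resident macrophage (Kupffer cell) markers summed to 11010 to 15660 on HF and 8827 to 10030 on HF+CR, but overlapped on low fat. In either direction, 0 of their 12 genes passed the test, where 1.58% of all genes tested did. Recruited macrophage markers summed to 2431 to 3981 on LF and 5269 to 6975 on LF+CR, and overlapped on high fat. In bulk liver, fewer cells of a type and less RNA per cell cannot be told apart. Arrays also stood apart singly: Clps, a pancreatic transcript, read 221 on LF 1 and 418 on LF+CR 1 against 45.9 to 53.1 elsewhere, Krt19, a bile duct keratin, read 399 on HF+CR 1 against 82.8 to 106 elsewhere, and on the first principal component LF+CR 2 (26.1), HF+CR 1 (-17.9) and HF 1 (17.1) lay farthest from 0.

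Of 17 tested genes of cholesterol synthesis, 15 were shared and higher and 0 were lower, with a median log2 change of 1.06 (1.20 on low fat and 0.92 on high fat), where 0.782% of all genes tested were shared and higher. The exceptions were Mvd, the decarboxylase of the mevalonate branch (0.25, adjusted p = 0.16), and Tm7sf2, a sterol reductase (0.31, adjusted p = 0.38). The interaction test called a difference between diets for none of the 17. Most of the shared ones rose more on low fat, such as Fdps (2.21 against 1.55 on high fat) and Hmgcs1 (1.20 against 0.68). Mvk and Ebp rose more on high fat. The standard error of the difference was 0.42 for Fdps and 0.47 for Sqle, so gaps of moderate size could have been missed. The gene for HMG-CoA reductase, the rate-limiting enzyme, was not analysed here.

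The promoters of these genes are shown first, because they carry a short sequence in common. Promoters were taken from RefSeq (mouse build GRCm38.p6) as the 250 bases before each annotated start, and a gene was counted when any of its starts had the letters. A promoter was found for 177 of the 217 shared genes, and for 12 of the 15 shared cholesterol genes, with none for Sqle, Fdps and Fdft1. All 12 held at least 1 CCAAT box, the letters CCAAT on either strand, a sequence known to be bound by the factor NF-Y, which works beside SREBP at sterol-regulated promoters. The last 180 bases before the start are printed for 6 of them, 5′ to 3′ on the gene's strand (for Dhcr7, with 3 annotated starts, the first listed that has a CCAAT box). Capitals mark CCAAT or its reverse complement ATTGG, and in Hmgcs1 also the sterol response element TCACNCCAC, which overlaps no CCAAT box there.
Idi1 (chr13:8885426-8885605, plus strand): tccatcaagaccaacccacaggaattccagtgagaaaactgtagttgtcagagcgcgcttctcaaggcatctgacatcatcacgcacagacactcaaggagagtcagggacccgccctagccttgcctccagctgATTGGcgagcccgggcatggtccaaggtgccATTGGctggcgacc
Nsdhl (chrX:72918341-72918520, plus strand): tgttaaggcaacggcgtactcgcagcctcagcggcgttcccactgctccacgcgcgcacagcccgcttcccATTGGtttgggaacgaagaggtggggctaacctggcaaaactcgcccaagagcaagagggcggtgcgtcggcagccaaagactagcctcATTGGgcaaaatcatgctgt
Cyp51 (chr5:4104698-4104877, minus strand): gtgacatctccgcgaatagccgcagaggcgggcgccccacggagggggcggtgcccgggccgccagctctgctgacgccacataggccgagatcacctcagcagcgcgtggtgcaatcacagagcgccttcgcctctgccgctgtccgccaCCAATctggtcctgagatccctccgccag
Hmgcs1 (chr13:119690171-119690350, plus strand): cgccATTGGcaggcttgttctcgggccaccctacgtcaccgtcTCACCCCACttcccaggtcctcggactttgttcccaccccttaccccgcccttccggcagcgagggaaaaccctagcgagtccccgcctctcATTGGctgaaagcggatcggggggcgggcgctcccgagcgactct
Msmo1 (chr8:64733579-64733758, minus strand): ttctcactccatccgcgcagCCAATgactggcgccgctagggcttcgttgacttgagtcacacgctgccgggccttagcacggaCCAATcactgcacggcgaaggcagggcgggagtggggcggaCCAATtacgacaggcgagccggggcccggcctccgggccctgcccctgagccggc
Dhcr7 (chr7:143830034-143830213, plus strand): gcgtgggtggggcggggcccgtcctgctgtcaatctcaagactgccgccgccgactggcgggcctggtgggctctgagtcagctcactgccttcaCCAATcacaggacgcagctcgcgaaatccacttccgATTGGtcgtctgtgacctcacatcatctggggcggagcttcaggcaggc

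The CCAAT box was not particular to the cholesterol genes. It was found in 63 of 93 shared higher genes with a promoter (67.7%), 31 of 84 shared lower genes (36.9%) and 39.6% of genes tested, and in 37.5% of all genes in the promoter table. Shared higher genes outside the cholesterol and endoplasmic reticulum groups had it in 57.1%. The whole cholesterol list, including the members that did not pass, had it in 14 of 14, so the box did not separate those that rose from the others. The sterol response element was found in 7 of 93 shared higher genes (7.53%), 2 of 84 shared lower genes (2.38%) and 1.22% of all genes in the table. The 7 were Aldoc, Camk1d, Echdc1, Gstm6, Gstm7, Hmgcs1 and Tmem258. Gstm6 and Gstm7 belong to 1 gene family, and their matches lie in stretches of nearly the same letters, so they are not independent. Among cholesterol genes only Hmgcs1 had it in this window. The GC box (GGGCGG) was as frequent in higher as in lower genes (67.7% and 65.5%), and the median GC content of the promoters was 60.2% and 60.0%. A match describes the letters only, and a promoter without one may have a variant of the element or one elsewhere.

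Along the pathway, the first step measured was Hmgcs1, the cytosolic HMG-CoA synthase. Its level was 1338 ± 330 (SD, n = 3) on LF and 3053 ± 429 on LF+CR, and 2265 ± 682 on HF and 3541 ± 517 on HF+CR, a log2 change of 0.94 ± 0.17 (SE, adjusted p = 0.017). Mvk, mevalonate kinase, rose by 0.58 and Pmvk, which adds the next phosphate, by 1.18. On LF, Mvk stood at 106 ± 8.79 (SD, n = 3), little above that filter, which is set at the 40th percentile of the probe sets of an array.

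Idi1, the isomerase that makes the building blocks of isoprenoids interchangeable, was among the largest risers of the data. It read 253.5, 222 and 446.4 on LF and 1720.5, 1996.9 and 1800.7 on LF+CR. On high fat it read 836.8, 313.7 and 660.1 without restriction and 1823.2, 2086.9 and 2222.1 with it. All 6 restricted arrays were above all 6 unrestricted arrays, and the log2 change was 2.21 ± 0.24 (SE, adjusted p = 0.0011).

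Fdps, which joins those building blocks to farnesyl diphosphate, behaved likewise. It read 688.3, 566.2 and 825.6 on LF and 3156, 3522.5 and 2998.1 on LF+CR. It read 1431.2, 471.2 and 1105.7 on HF and 2522.1, 2866 and 2680.8 on HF+CR, a log2 change of 1.88 ± 0.23 (adjusted p = 0.002). The groups did not overlap, although a second bright probe set of Fdps moved by only 0.11. Fdft1, squalene synthase, the first enzyme committed to sterols, rose by 0.77 ± 0.11 (adjusted p = 0.0051).

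Sqle, squalene epoxidase, an oxygen-dependent control point of the pathway, had the largest log2 change of any shared gene. It read 153, 131.9 and 244.9 on LF and 1096.8, 1089.4 and 1100.3 on LF+CR. On high fat, 411.4, 130.4 and 356.3 stood against 861.5, 1253.1 and 1123.2. The 3 LF+CR arrays were close together, while HF 2 was far under HF 1 and HF 3, as it was for Idi1, Fdps and Nsdhl. The log2 change was 2.25 ± 0.25 (adjusted p = 0.0012), 2.57 on low fat and 1.92 on high fat, and the difference between diets was -0.65 (95% interval -1.68 to 0.38, adjusted p = 0.44).

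Lss, which closes the sterol rings, rose by 1.06 ± 0.09 (adjusted p = 0.00038), from 212 ± 23.2 to 505 ± 46 on low fat and from 244 ± 28.1 to 477 ± 56.9 on high fat (SD, n = 3). Cyp51, the demethylase of lanosterol, read 392.1, 268.4 and 431.6 on LF and 1175.1, 1699.4 and 1416 on LF+CR. It read 688, 312 and 592.1 on HF and 1302.7, 1621.9 and 1560.1 on HF+CR. All restricted arrays were again above all unrestricted ones (1.74 ± 0.19, adjusted p = 0.0011), with other probe sets of Cyp51 at 0.29 to 1.63.

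The enzymes that strip the remaining methyl groups, Msmo1 and Nsdhl, rose by 1.63 ± 0.20 (adjusted p = 0.002) and 1.82 ± 0.19 (adjusted p = 0.0011). Msmo1 was the shared higher gene that also rose with dietary fat. It read 288, 294.4 and 560.7 on LF, 1442.3, 1338.2 and 1543.4 on LF+CR, 1228, 632.3 and 1112.3 on HF, and 2063, 2596.1 and 2546.2 on HF+CR. Its log2 difference for high fat was 1.04 (adjusted p = 0.04), so the unrestricted HF mice lay between LF and LF+CR. Nsdhl read 352.9, 425.8 and 521.1 on LF, 1605.1, 1967.5 and 1634.2 on LF+CR, 791.4, 297.5 and 606 on HF, and 1599.2, 1795.8 and 1708.5 on HF+CR. Restricted mice reached nearly the same Nsdhl level on both diets.

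Of the late steps, Dhcr7, the reductase that makes cholesterol from its last precursor, rose by 1.34 ± 0.16 (adjusted p = 0.002). It read 156.8, 215.2 and 234 on LF, 633.6, 669 and 562.4 on LF+CR, 391.7, 191.4 and 319.7 on HF, and 538.3, 709 and 695.6 on HF+CR. Sc5d rose by 0.71, Hsd17b7 by 0.67 and Ebp, a sterol isomerase, by 0.31 (adjusted p = 0.022). Erg28, an endoplasmic reticulum protein that holds sterol enzymes together and was in no list, rose by 0.62 and was named after its values were seen.

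**Figure D2:**
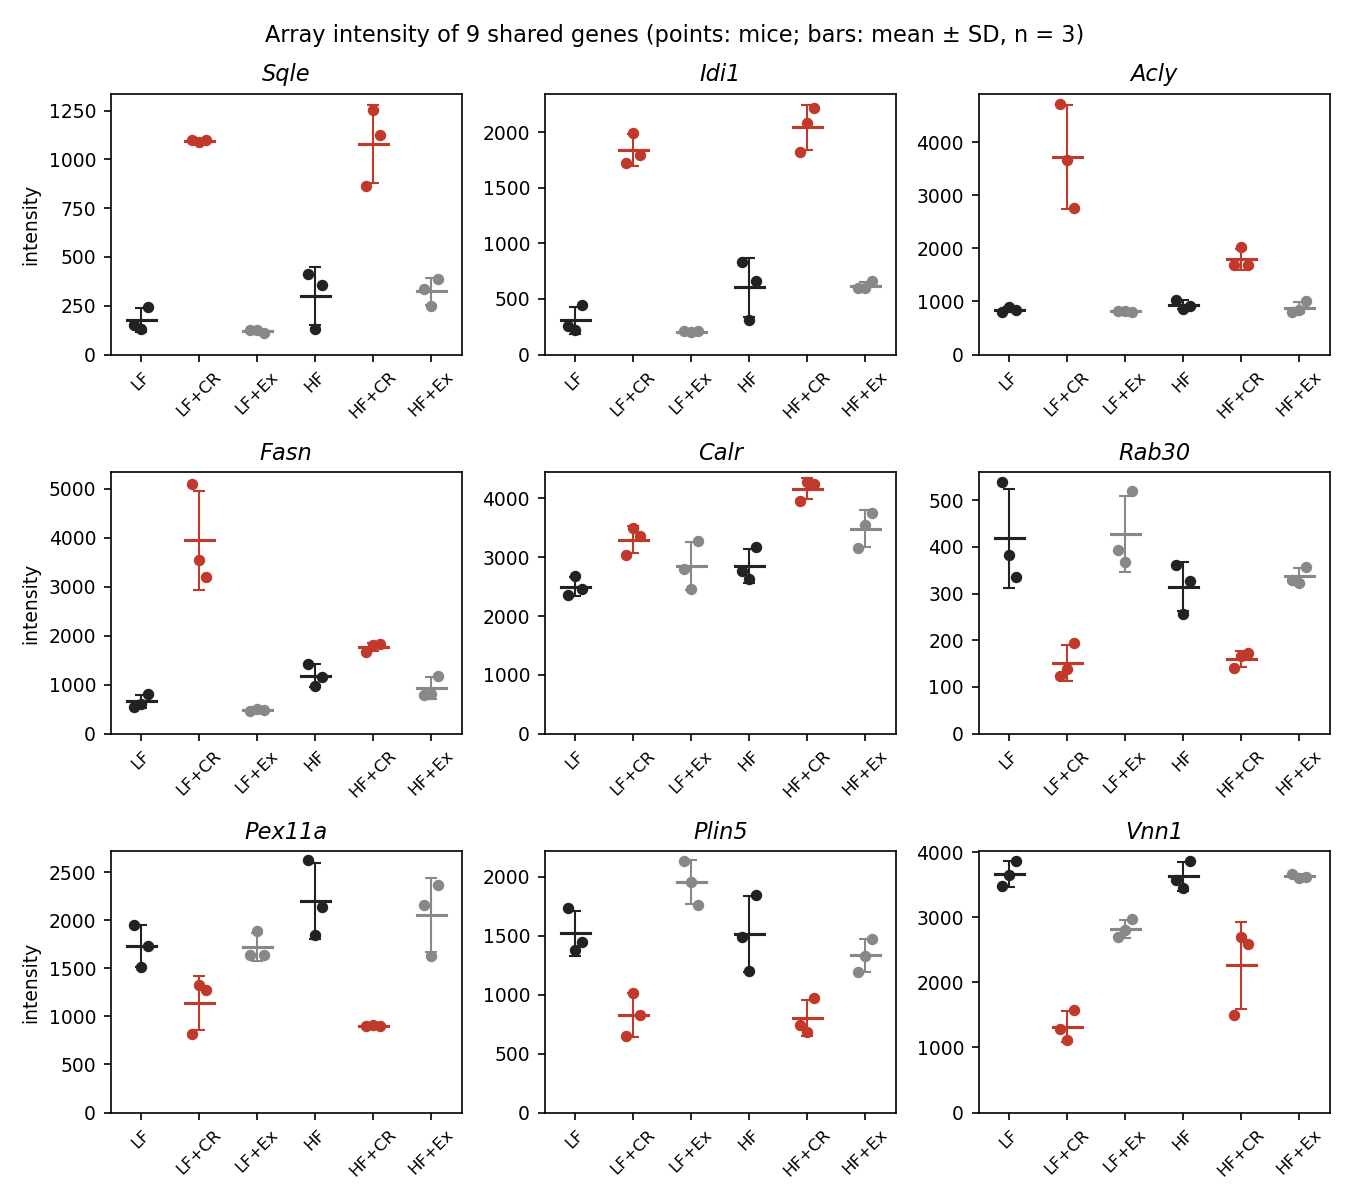
Array intensity (linear axis from 0) of 9 shared genes in the 6 groups of 3 mice, with unrestricted mice in black, restricted mice in red and runners in grey; each point is 1 mouse and bars give the mean and SD. In Sqle and Idi1 the red points of both diets reach similar heights, in Fasn and Acly they stand higher on low fat than on high fat, and in Rab30, Pex11a, Plin5 and Vnn1 they lie below the black points of the same diet.

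Among genes that sense and move cholesterol, 2 of 15 were shared and higher and 1 was lower, against 0.782% and 0.747% of all genes tested. Srebf2, which encodes SREBP2, read 234.2, 247.9 and 230.6 on LF, 279.9, 287.8 and 296.4 on LF+CR, 284.5, 264.6 and 292.9 on HF, and 328.8, 294.3 and 322.3 on HF+CR. Its arrays did not overlap within a diet, but the change was only 0.21 ± 0.05 on the log2 scale (adjusted p = 0.045), and it lost the call under 17 of the 27 alternatives, among them the dropping of any 1 array except HF+CR 2. Stard4, a carrier of cholesterol between membranes, rose by 0.77 ± 0.16 (adjusted p = 0.034). It read 583.6, 550.1 and 976.9 on LF and 1318.6, 759.6 and 1431.7 on LF+CR, so that the arrays overlapped on low fat, and 677.7, 703 and 586.3 on HF against 1108.8, 1282.8 and 1143.8 on HF+CR. The Stard4 call was lost on dropping any 1 array except LF 3 and LF+CR 2 (adjusted p of 0.0575 to 0.098). Mylip, the ubiquitin ligase that marks the LDL receptor for degradation, fell by 0.34 (adjusted p = 0.0076), from 458 ± 22.9 to 382 ± 18.1 on low fat and from 555 ± 23.8 to 410 ± 27.3 on high fat (SD, n = 3). The LDL receptor gene was not analysed here. Insig1, which anchors the SREBP complex, differed between diets, at 0.84 on low fat and 0.06 on high fat (adjusted p of the difference = 0.018), and was not shared.

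Fatty acid synthesis was shared in part. Of 19 tested genes, 5 were shared and higher (Acly, Acss2, Fasn, Slc25a1 and Srebf1) and 0 were lower, while the diet difference was called for 8. Of all genes tested, 0.782% were shared and higher, and the diet difference was called for 4.1%. The median log2 change was 0.42 over the list, 0.90 on low fat and 0.04 on high fat. Genes called for restriction here thus mix a rise on both diets with a larger one on low fat. Acaca, acetyl-CoA carboxylase, was not called for restriction (0.74, adjusted p = 0.17). Its change was 1.47 on low fat and 0.02 on high fat (adjusted p of the difference = 0.0096).

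Acly, the citrate lyase that supplies acetyl-CoA in the cytosol, read 801.4, 891.1 and 844 on LF and 4721.6, 3667.7 and 2758.8 on LF+CR. It read 1035.2, 864.7 and 913 on HF and 1678.8, 2026.3 and 1687.2 on HF+CR. No restricted array overlapped any unrestricted one, and the log2 change was 1.5 ± 0.20 (adjusted p = 0.0028), but it was smaller on high fat by 1.16 (95% interval 0.67 to 1.64 lower). Other probe sets of Acly moved by 0.07 to 1.60.

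Fasn, fatty acid synthase, showed the widest gap between diets of all shared genes. It read 550.1, 604.9 and 811.4 on LF and 5103.6, 3541.4 and 3195.4 on LF+CR. On HF it read 1426.9, 966.2 and 1146.2, and on HF+CR 1664.1, 1805 and 1823.4. The change was 2.55 ± 0.19 on low fat and 0.59 ± 0.19 on high fat, and the main effect of 1.57 (adjusted p = 0.024) lies between them. That main effect missed the threshold on dropping any 1 LF array or LF+CR 3 (adjusted p of 0.0523 to 0.0617).

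Acss2, which makes acetyl-CoA from acetate, rose by 1.30 ± 0.20 (adjusted p = 0.0063), with 744.1, 1394.4 and 1317.1 on LF against 4654.4, 3134.7 and 2956.2 on LF+CR. On high fat 1119.6, 671.9 and 883.6 stood against 1493.4, 2049.1 and 1652.3. Srebf1, which encodes SREBP1, rose by 0.88 ± 0.16 (adjusted p = 0.014). It read 582.7, 924.3 and 874.8 on LF, 2266.1, 1555.1 and 1793.5 on LF+CR, 1268.5, 1460.9 and 1209.2 on HF, and 1703.6, 2213.5 and 1837 on HF+CR. The restricted mice of both diets thus had like Srebf1 levels, and the unrestricted ones differed. Slc25a1, the mitochondrial citrate carrier, rose by 0.35 (adjusted p = 0.0093).

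Several shared higher genes outside the lists have known roles near these pathways and were named after their values were seen. Rdh11, a retinol dehydrogenase, was among the 10 largest risers by the rule and read 260.2, 201.7 and 243.5 on LF, 910.7, 794 and 640.3 on LF+CR, 296.7, 174.1 and 243.5 on HF, and 439.2, 560.9 and 489.4 on HF+CR (1.35 ± 0.15, adjusted p = 0.0013). Mid1ip1, an activator of acetyl-CoA carboxylase, rose by 0.93 (adjusted p = 0.0048). Acsl3, an acyl-CoA synthetase, rose by 1.29 on low fat and 0.46 on high fat, a difference past the threshold (adjusted p = 0.039). Idh1, a cytosolic source of NADPH, rose by 0.36, and Cyp2r1, a vitamin D hydroxylase, by 0.61. Cdh1, which encodes E-cadherin, rose by 1.25 (adjusted p = 0.0076), more on high fat (1.62) than on low fat (0.87), though that difference missed the threshold (adjusted p = 0.23).

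**Figure D3:**
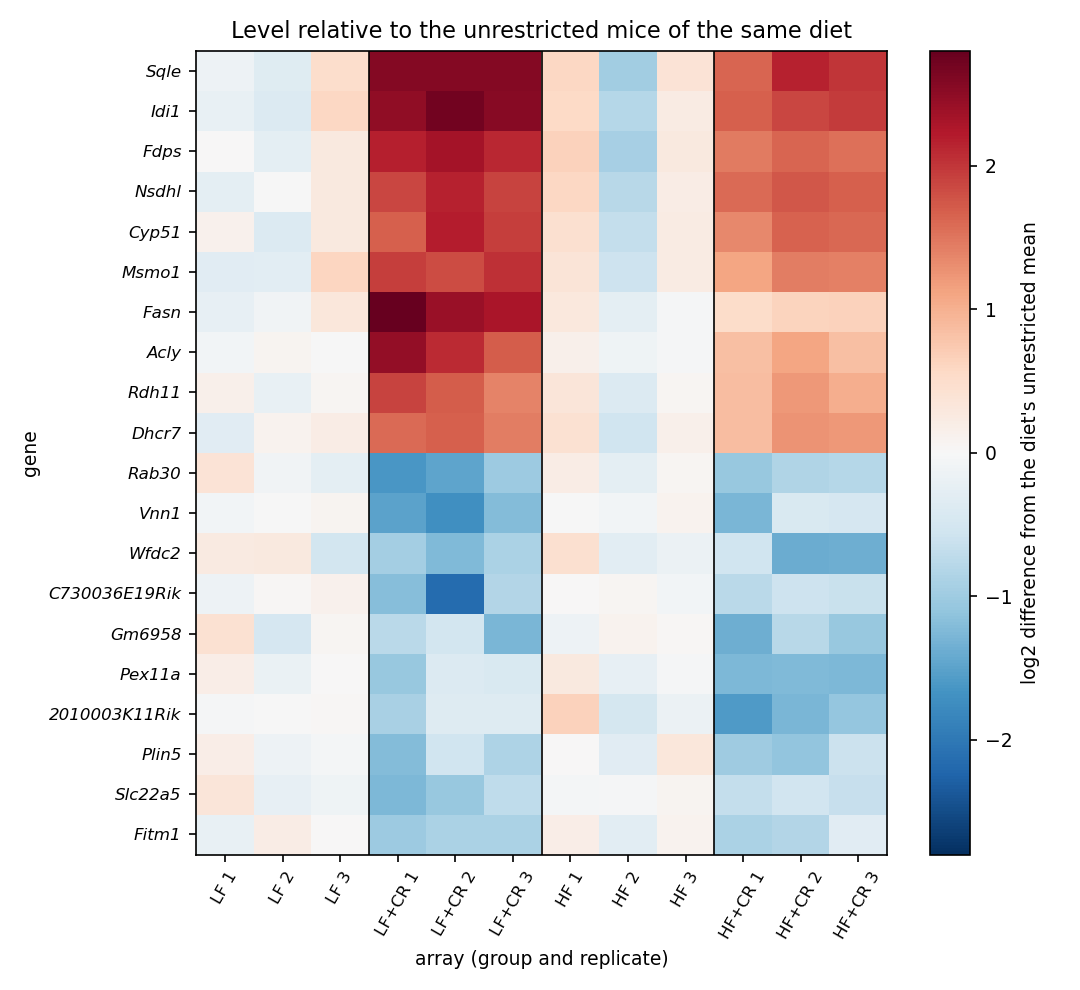
Log2 level of the 10 largest rising and 10 largest falling shared genes without overlap (rows) on each of the 12 arrays (columns), relative to the mean of the unrestricted mice of the same diet; red is higher and blue lower. The restricted columns are red for the upper rows and blue for the lower rows on both diets, with paler red on high fat for Fasn and Acly, and HF 2 is bluer than HF 1 and HF 3 in the cholesterol genes.

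Several genes of the endoplasmic reticulum rose by small amounts on both diets. Of 26 chaperone and unfolded protein response genes, 6 were shared and higher (Calr, Dnajb11, Edem1, Pdia3, Pdia6 and Sdf2l1) and 0 were lower. Of all genes tested, 0.782% were shared and higher and 0.747% were shared and lower. A positive sign on both diets was seen for 19 of the 26, with a median log2 change of 0.21 over the list. Of all genes tested, 45% had the same sign on both diets, in either direction. Among the members that did not pass, Hspa5, the chaperone BiP, had 0.19 (adjusted p = 0.3), and the stress-response factors Xbp1, Atf4 and Ddit3 had 0.01, 0.22 and 0.11.

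Pdia6, a disulfide isomerase, read 890.9, 1026.8 and 1074.4 on LF and 1289.5, 1502.2 and 1484.9 on LF+CR. It read 1215, 974 and 1198.4 on HF and 1839.3, 1840.3 and 1773.2 on HF+CR, with all restricted above all unrestricted arrays (0.60 ± 0.07, adjusted p = 0.002), while another Pdia6 probe set moved by 0.14. Calr, the calcium-binding chaperone calreticulin, rose by 0.47 ± 0.06 (adjusted p = 0.0028). It read 2365.6, 2677.7 and 2457.6 on LF, 3046.1, 3495 and 3365.2 on LF+CR, 2763.1, 2625.7 and 3173.1 on HF, and 3958.8, 4283.1 and 4249.9 on HF+CR. Sdf2l1, a partner of BiP, rose by 0.58 (adjusted p = 0.033) with overlap on low fat, from 246 ± 48.4 to 318 ± 48.7 there and from 252 ± 10.8 to 454 ± 72.8 on high fat (SD, n = 3), and its call was lost on dropping LF 1, LF+CR 3 or any 1 HF or HF+CR array (adjusted p of 0.0552 to 0.0887). Edem1, which sends misfolded glycoproteins to degradation, rose by 0.35 ± 0.05 (adjusted p = 0.004) and was lower on high fat than on low fat by 0.25 (adjusted p = 0.042).

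Pdia6 and Calr are the shared genes of this list whose promoters hold the endoplasmic reticulum stress element, here CCAAT and CCACG with any 9 bases between them on either strand, known to be bound by ATF6 together with NF-Y. Their last 180 bases before the start are shown with CCAAT or ATTGG and the CCACG or CGTGG of the element in capitals.
Pdia6 (chr12:17266409-17266588, plus strand): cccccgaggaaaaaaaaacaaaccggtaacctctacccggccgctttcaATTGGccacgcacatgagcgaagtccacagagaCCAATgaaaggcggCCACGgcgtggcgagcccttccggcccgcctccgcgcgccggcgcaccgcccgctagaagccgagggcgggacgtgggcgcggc
Calr (chr8:84846932-84847111, minus strand): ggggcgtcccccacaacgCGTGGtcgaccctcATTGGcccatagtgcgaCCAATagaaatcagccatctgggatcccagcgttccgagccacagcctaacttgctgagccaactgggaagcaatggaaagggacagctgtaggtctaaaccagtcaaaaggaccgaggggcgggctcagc

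The element was found in 0.13% of all genes in the promoter table, in 8 of 23 tested genes of this list with a promoter, and in 2 of the 6 shared ones. Most list genes that hold it were thus not among those that passed. The CCAAT box it contains was likewise found in 21 of the 23 and in 6 of the 6.

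Inspection of the shared genes led to a further list of 42 tested genes for protein translocation into the endoplasmic reticulum, signal peptide cleavage and sugar transfer, which was drawn up after the values had been seen and is a description only. In it 13 genes were shared and higher and 2 lower, against 0.782% and 0.747% of all genes tested. The risers included the channel subunits Sec61a1 (0.40) and Sec61b (0.38), the signal peptidase subunits Spcs2 (0.36) and Spcs3 (0.42), and the oligosaccharyltransferase subunits Rpn1 (0.35), Ddost (0.35), Stt3a (0.35) and Tmem258 (0.43). Spcs3 rose from 647 ± 37.5 to 898 ± 35.2 on low fat and from 729 ± 26.0 to 949 ± 23.5 on high fat (SD, n = 3, adjusted p = 0.0011). The fallers were the paralogs Sec61a2 (-0.30) and Tram2 (-0.40), whose counterparts Sec61a1 and Tram1 rose. The summed intensity of the list was 40020 to 41380 on LF, 44420 to 51300 on LF+CR, 39750 to 41600 on HF and 44500 to 46310 on HF+CR, with no overlap on either diet. A second list drawn up in the same way, of 29 vesicle coat genes, had 3 shared and higher, Cope, Copz1 and Lman1 (0.20 to 0.29). The same share of all genes, 0.782%, stands beside it.

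Amino acid and nitrogen genes moved little as groups, but single enzymes rose evenly on both diets. Of 22 genes of amino acid breakdown, Tat and Got1 were shared and higher. Tat, tyrosine aminotransferase, went from 2849 ± 58.8 to 4867 ± 309 on low fat and from 2432 ± 281 to 4335 ± 728 on high fat (SD, n = 3, log2 change 0.80 ± 0.08, adjusted p = 0.0011). Got1, cytosolic aspartate aminotransferase, rose by 0.87 (adjusted p = 0.038). Cps1, the entry enzyme of the urea cycle, rose by 0.34 on each diet (adjusted p = 0.0073), as 1 of 9 genes of that list. Pemt, which makes phosphatidylcholine by methylation, rose by 0.20, and the proteasome subunit Psmb3 by 0.23. The glutathione transferases Gstm6 (0.45) and Gstm7 (0.49) were the 2 shared genes of 19 tested, in a list where the difference between diets was called for 8, and probe sets of this family can share sequence.

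Several lipid droplet genes fell. Of 25 tested, 5 were shared and lower (Plin5, Fitm1, Mgll, Fitm2 and Fabp2) and 0 were higher, against 0.747% of all genes, with a median log2 change of -0.26; 13 were negative on both diets, and the difference between diets was called for 7. Plin5, the droplet coat protein that ties droplets to mitochondria, read 1736.9, 1380.2 and 1447.6 on LF and 646.7, 1015.9 and 827.2 on LF+CR. It read 1493.8, 1200.3 and 1849.2 on HF and 741.2, 683.7 and 971.7 on HF+CR. The groups had like means on both diets, all restricted arrays lay below all others, and the change was -0.89 ± 0.13 (adjusted p = 0.0052), with a diet difference of -0.03 (95% interval -0.61 to 0.56).

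Fitm1 and Fitm2 help to bud lipid droplets from the endoplasmic reticulum, and both fell. Fitm1 read 898, 1213.5 and 1054.5 on LF, 506.4, 562 and 557 on LF+CR, 1855.9, 1315.4 and 1744.3 on HF, and 872.6, 914 and 1295.7 on HF+CR. It fell with restriction by 0.80 ± 0.12 (adjusted p = 0.0056) and was higher on high fat by 0.75 (adjusted p = 0.017), so that HF+CR mice had about the level of LF mice. Fitm2 read 851.5, 706.5 and 754.9 on LF, 464.4, 476.4 and 545 on LF+CR, 719.9, 646.5 and 717.8 on HF, and 450.7, 528.5 and 539.5 on HF+CR, a fall of 0.53 ± 0.07 (adjusted p = 0.0028) with no effect of diet past the threshold.

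Mgll, the lipase of monoglycerides, read 2517.3, 2254.8 and 2576.6 on LF, 1293, 1533.2 and 1540.7 on LF+CR, 2116.9, 1973.9 and 2097.8 on HF, and 1251.9, 1427.8 and 1649.7 on HF+CR. It fell by 0.63 ± 0.08 (adjusted p = 0.002), and its other probe sets fell by 0.77 to 0.80. Fabp2, a fatty acid binding protein, fell by 0.41 (adjusted p = 0.02). Mogat1, which acylates monoglycerides, was the only shared member of 12 triglyceride synthesis genes and fell by 0.77 (adjusted p = 0.013), though on LF+CR it stood at 89.8 ± 10.0 (SD, n = 3), at the dim threshold. The droplet genes Cidea and Cidec, known from fatty liver, fell by 3.33 and 2.00 on high fat with a difference between diets past the threshold, and were not shared.

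Most genes of fatty acid oxidation had negative values under restriction, and few passed the test. In the peroxisomal and microsomal list, 3 of 18 were shared and lower, 0 were higher and 15 were negative on both diets, with a median of -0.34. In the mitochondrial list, 2 of 19 were shared and lower, 0 were higher and 14 were negative on both diets, with a median of -0.16. Of all genes tested, 0.747% were shared and lower, and 45% had the same sign on both diets, in either direction. Cpt1a, the gate of mitochondrial entry, had -0.36 (adjusted p = 0.068), and Ppara, which encodes PPARα, had -0.41 (adjusted p = 0.41), so neither passed.

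Pex11a, which elongates and divides peroxisomes, read 1951.4, 1516.8 and 1733.1 on LF and 816.9, 1324.4 and 1271.2 on LF+CR. It read 2626.7, 1847.5 and 2134.5 on HF and 903.8, 909.4 and 904.3 on HF+CR. All restricted arrays were below all unrestricted arrays, and the change was -0.94 ± 0.15 (adjusted p = 0.0076), larger in value on high fat (-1.25) than on low fat (-0.63), a difference that missed the threshold (adjusted p = 0.17).

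Vnn1, an enzyme that recycles pantothenate from coenzyme A breakdown, read 3475.9, 3658.1 and 3874.6 on LF, 1286.1, 1111.2 and 1570.2 on LF+CR, 3575.4, 3445.5 and 3871.3 on HF, and 1495.4, 2701.7 and 2596 on HF+CR. The unrestricted arrays were within a narrow band on both diets, and the change was -1.10 ± 0.17 (adjusted p = 0.0063). Crat, carnitine acetyltransferase, fell by 0.69 ± 0.13 (adjusted p = 0.018), from 778 ± 171 to 481 ± 106 on low fat and from 565 ± 73.7 to 342 ± 50.1 on high fat (SD, n = 3), while 2 other bright probe sets of Crat moved by -0.09 and -0.05. The Crat call was lost on dropping HF 3 (adjusted p = 0.0533) and on averaging its probe sets (adjusted p = 0.0812).

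Slc22a5, the carnitine importer of the plasma membrane, read 964.5, 640.3 and 695.9 on LF, 306.4, 354.6 and 458.2 on LF+CR, 582.1, 585.1 and 639.5 on HF, and 372, 410.3 and 377.1 on HF+CR. It fell by 0.81 ± 0.12 (adjusted p = 0.0051), and restricted mice had similar levels on both diets. Slc25a20, the mitochondrial carrier of acylcarnitines, fell by 0.40 (adjusted p = 0.026).

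**Figure D4:**
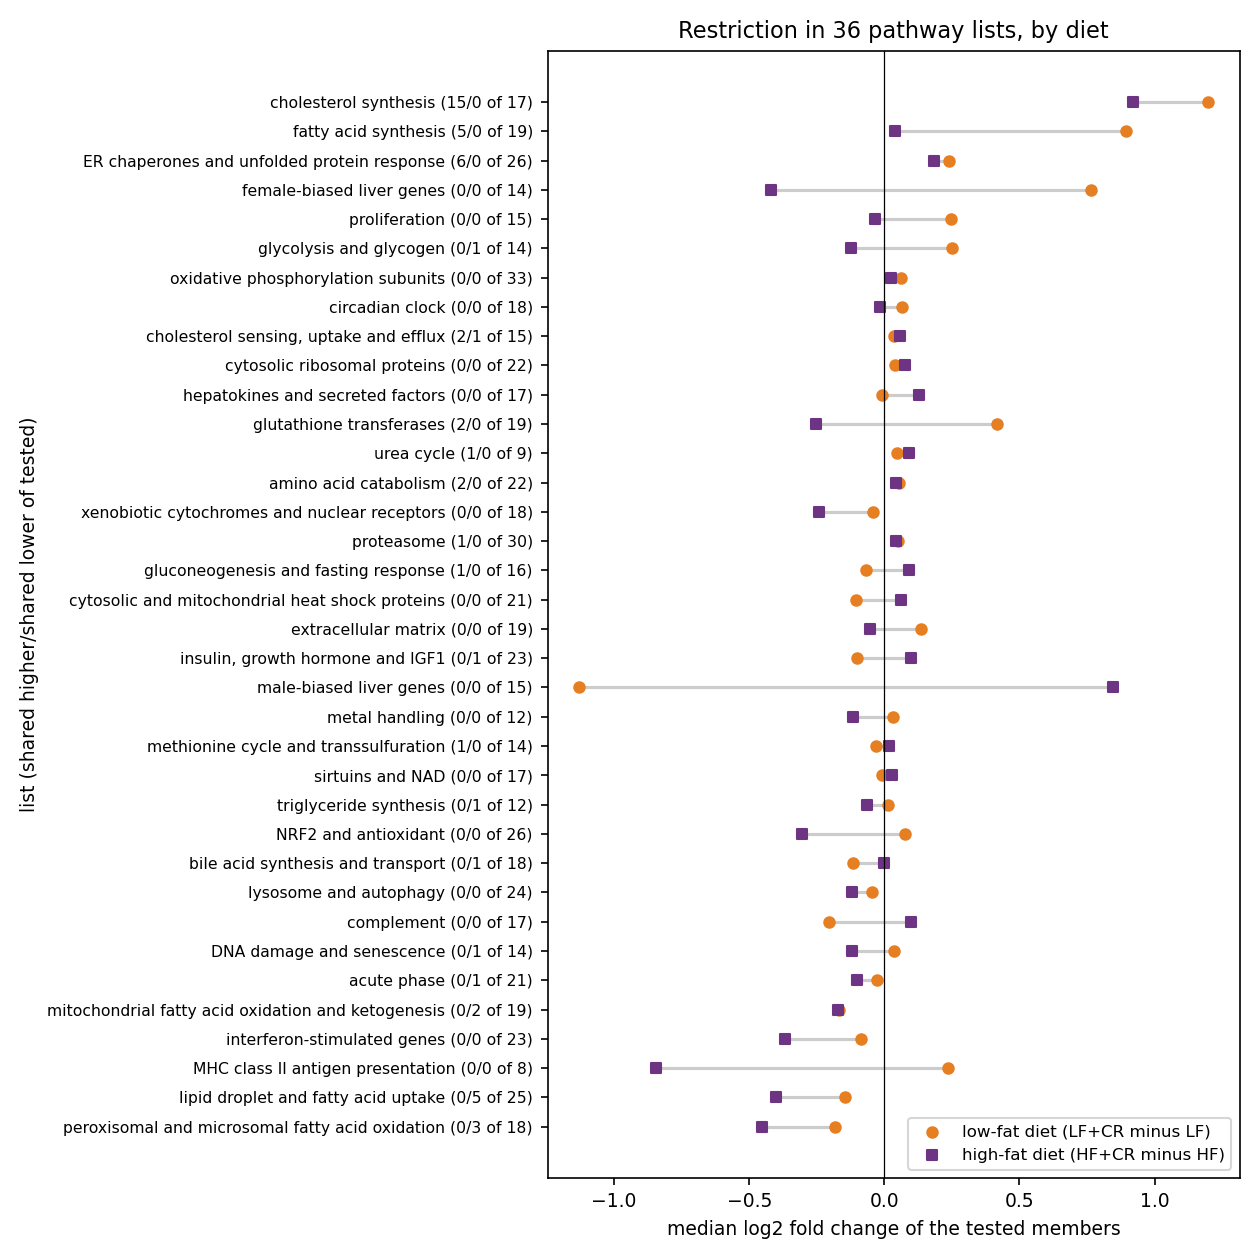
Median log2 fold change for restriction over the tested genes of each of 36 pathway lists, on the low-fat diet (orange circles) and the high-fat diet (purple squares), with the lists ordered by the median of the common effect. Cholesterol synthesis stands out at the right at 1.20 on low fat and 0.92 on high fat; most other lists lie near 0 or have medians of opposite sign on the diets.

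The largest faller without overlap was Rab30, a small GTPase of the Golgi. It read 538, 382.2 and 335.4 on LF and 122.3, 137.3 and 194.9 on LF+CR. It read 360.6, 256.5 and 326.7 on HF and 141.2, 166.1 and 172.1 on HF+CR, a change of -1.14 ± 0.15 (adjusted p = 0.0027), with another probe set at -0.49. All restricted arrays were below all unrestricted ones. Acnat2, an acyl transferase of peroxisomes, had a change of -1.15 (adjusted p = 0.01) but overlapped on low fat.

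Wfdc2, a secreted protease inhibitor, read 368.4, 376.6 and 209.1 on LF, 150.5, 121.8 and 158.8 on LF+CR, 556.8, 323.7 and 357.1 on HF, and 265.3, 144.4 and 144.6 on HF+CR (-1.07 ± 0.19, adjusted p = 0.013). Among the largest fallers 3 carry only clone or model names. C730036E19Rik fell by 1.02 and was higher on high fat by 1.49 (adjusted p = 0.0093), with 311 ± 31.5 on LF, 117 ± 56.5 on LF+CR, 692 ± 28.8 on HF and 435 ± 27.4 on HF+CR (SD, n = 3), and its value of 56.7 on LF+CR 2 was under the dim threshold. Its call was lost on dropping any 1 LF array, LF+CR 1 or HF+CR 1 (adjusted p of 0.0511 to 0.0613). Gm6958 fell by 0.96 (adjusted p = 0.011) and 2010003K11Rik by 0.94 (adjusted p = 0.038). The last lost its call under 14 of the 27 alternatives, among them the dropping of any 1 array except LF+CR 2, LF+CR 3 and HF 1.

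Other listed genes that were shared and lower were single members of their lists. Stat5a, which relays growth hormone signals, fell by 0.28 (adjusted p = 0.033). Lbp, the lipopolysaccharide binding protein, fell by 0.48, the bile acid conjugating enzyme Baat by 0.20, the liver phosphofructokinase Pfkl by 0.22 and the p53 target Ccng1 by 0.34. Lyve1, an endothelial marker, went from 150 ± 8.83 to 120 ± 12.5 on low fat and from 331 ± 19.5 to 147 ± 21.9 on high fat (SD, n = 3), and its effect differed between diets (adjusted p = 0.011). It was the only 1 of 12 sinusoidal endothelial genes that passed, and the summed level of that list was 5544 to 5956 on LF, 5444 to 5652 on LF+CR, 5843 to 6207 on HF and 5326 to 5723 on HF+CR, whose part in the fall of Lyve1 was not tested.

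In the model with terms for diet and restriction, fewer genes were called for dietary fat than for restriction. How far the counts differ depends on the model. Averaging the contrasts gave 340 for diet and 456 for restriction on 12 arrays. With the spread estimated from 18 arrays it gave 631 and 679. With restriction held as a covariate, 106 genes (0.747%) were called for diet, 66 higher (0.465%) and 40 lower (0.282%) on high fat. Of the 106 shared lower genes, 14 were higher and 1, Retsat, was lower on high fat. Of the 111 shared higher genes, 1 was higher (Msmo1) and 1 lower (Edem1). Among the 14 were C730036E19Rik, Fitm1, Lyve1, the amino acid oxidase Ddo (0.48), the lysosomal transporter Mfsd1 (0.44, adjusted p = 0.0024), Ccng1 (0.42) and Clstn3 (0.35), which were thus higher on high fat and lower under restriction. The median diet effect was 0.10 over the shared lower genes and -0.04 over the shared higher ones. Both effects were fitted on the same arrays and share 1 estimate of the spread. Diet calls were sensitive to the arrays used, with 23 to 59 left when any 1 of LF 1, LF 3, LF+CR 1, LF+CR 3, HF 1, HF 3 or the 3 HF+CR arrays was dropped.

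**Figure D5:**
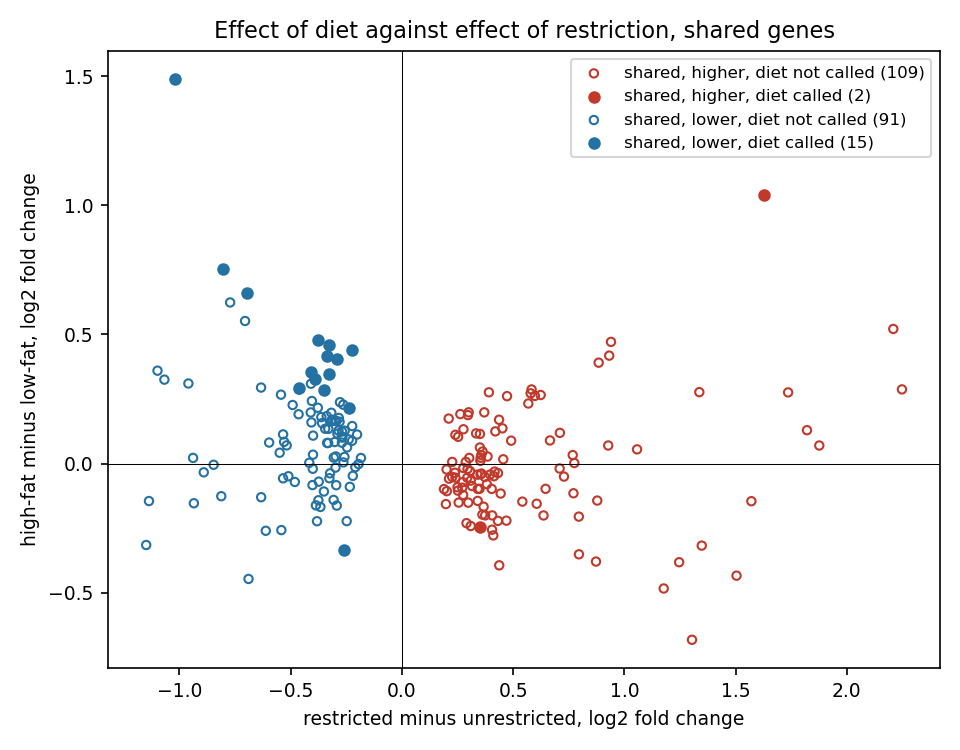
Log2 difference between high-fat and low-fat diet (vertical axis) against the log2 change with restriction (horizontal axis), both from 1 model, for each gene, with shared higher genes in red and shared lower genes in blue. Msmo1 stands alone among the red points at 1.04 on the vertical axis, and C730036E19Rik at 1.49 and Fitm1 at 0.75 are highest among the blue points.

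Mice with a running wheel, which ate without limit, did not have the levels of restricted mice in most shared genes. The mean of the LF+Ex arrays was nearer to LF than to LF+CR in 103 of 111 shared higher and 99 of 106 shared lower genes. The mean of the HF+Ex arrays was nearer to HF than to HF+CR in 105 and 102. Because the LF, HF and restricted arrays chose these genes, such nearness is a description and not a test. In Sqle, runners read 124.3, 124.4 and 109.4 on low fat and 336.7, 249.8 and 387.2 on high fat, all under the restricted mice of the same diet. In Plin5 they read 2138.3, 1960.9 and 1765.4 on low fat, all above the LF mice, and 1196, 1332.9 and 1475.4 on high fat, near the range of HF mice. Runners moved toward the restricted level in some shared genes. Sdf2l1 averaged 246 on LF, 326 on LF+Ex and 318 on LF+CR, and 252 on HF, 381 on HF+Ex and 454 on HF+CR. Calr averaged 2500, 2846 and 3302 in the same order on low fat, and 2854, 3488 and 4164 on high fat. Tat averaged 2849, 4015 and 4867 on low fat, but 2432, 2609 and 4335 on high fat.

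A set of 30 genes often measured in restricted animals was followed, of which 26 were tested, and 3 were shared (Fasn, Srebf1 and Srebf2). Igf1, the growth factor made by the liver under growth hormone, had a common change of 0.01, from -0.26 on low fat and 0.29 on high fat, and this difference passed the threshold (adjusted p = 0.03). Other members that did not pass for restriction were Igfbp1 (0.76, adjusted p = 0.31), Fgf21 (-0.58, adjusted p = 0.39), Cyp7a1 (-0.07), Pck1 (0.06), Ppargc1a (0.04), Sirt1 (0.09) and Cdkn1a (-0.23). Their standard errors were large for several, 0.32 for Igfbp1 and 0.28 for Fgf21, so changes of moderate size could have been missed. Because only 1.53% of all genes tested were shared, a list of this size can easily hold none. Of the 36 pathway lists, 17 had no shared gene, among them cytosolic ribosomal proteins (22 tested), oxidative phosphorylation subunits (33 tested), interferon-stimulated genes (23 tested) and clock genes (18 tested). Nor had the 15 male-biased liver genes a shared member: all 15 had opposite signs on the diets, and the difference between diets was called for 13. Hsd3b5, the largest of all differences, read 243.1, 884.1 and 1935.6 on LF and 78.3, 69.8 and 70.6 on LF+CR, but 73.1, 75.3 and 70.2 on HF and 3052.6, 2582.2 and 4177.2 on HF+CR.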

How the data were processed

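For each probe set the authors deposited 1 linear intensity per array, and the array means lie between 306.9 and 309.8. Neither the tool nor the method of normalization is given in the sources used here. Per the labels' protocols, biotinylated cRNA was made from RNA extracted with Trizol. Of 45101 probe sets, 64 controls were left out, and of the rest 34945 carried 1 gene symbol in the platform table, 932 several and 9160 none. Those with several or none were not used. A gene was its probe set with the highest mean over the 18 arrays (18193 genes), and was tested where it exceeded the 40th percentile of an array on at least 3 of them, which left 14198 genes. The number of arrays limits the precision: the median standard error of the restriction effect was 0.0667.

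Log2 of the intensity plus 16 was fitted with limma 3.58.1 in R 4.3.3 to the 12 arrays of LF, LF+CR, HF and HF+CR, with terms for diet and restriction (9 residual and 3.34 prior degrees of freedom). A second fit with 1 mean per group (8 residual and 3.72 prior degrees of freedom) gave the contrasts within each diet and their difference. Adjusted p is Benjamini-Hochberg over all genes tested, with a threshold of 0.05. The labels do not say that mice came from separate litters or cages beyond single housing, and p-values measure the spread between these mice. SE is the moderated standard error. Log2 changes of genes near the dim threshold depend on the offset.

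The comparison, the 48 gene lists (36 pathways and 12 cell types, 867 genes, 743 tested) and a set of 30 genes were chosen with earlier results of these data known. Genes named are the 10 largest rises and 10 largest falls among shared genes without overlap on either diet, up to 4 shared members of each pathway list with at least 3, the set of 30, and the 3 largest differences between diets in each direction. Other genes were named after their values were seen, as were the translocation and vesicle coat lists. Where a gene had several bright probe sets, the others are given for some genes only. Of the 217 shared genes, 111 had another bright probe set. In 102 of these all others had the same sign, and in 9 at least 1 had the opposite sign. In 20 of the 111, every other probe set moved much less or the other way. Promoters came from a RefSeq table (GRCm38.p6) and were searched for 13 motifs on both strands. Alternatives comprised other normalizations, offsets of 1 and 64, filters, probe set means, variance and weight models, fits with a replicate block or a clock covariate, fits without arrays that stood apart, and each array left out. In 20 simulated runs of 14198 genes, 200 of them changed, the restriction test recovered 88.8% of genes given a change of 0.5. Where the change was 1, recovery was 98.6%. The rate of false calls was 4.9%. Recovery of genes whose effect differs between diets was not tested. Such a difference was called for 582 genes (4.1%) here, so the simulated rates may not hold for the measured arrays.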

Additional observations from a re-analysis of the deposited data

Results flagged for a closer look

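Of the 582 genes whose effect of restriction differed between the diets in limma's test of the difference itself, 13 are listed, namely the shared ones, those of the set of 30 and the largest in each direction. Values are the log2 effect on high fat minus that on low fat. Of the shared genes, Fasn had -1.96 (adjusted p = 0.00234), Acly -1.16 (adjusted p = 0.0154), Acsl3 -0.83 (adjusted p = 0.039), Slc25a10, the mitochondrial dicarboxylate carrier, -0.57 (adjusted p = 0.00986) and Lyve1 -0.81 (adjusted p = 0.0106). Fasn, Acly and Acsl3 rose more on low fat, and Slc25a10 and Lyve1 fell more on high fat. Of the set of 30 genes, Igf1 had 0.55 (adjusted p = 0.03) and Cd36, a fatty acid transporter, -1.92 (adjusted p = 0.000683). The largest differences were those of genes that are expressed unequally in male and female liver or respond to growth hormone. Hsd3b5 had 8.29 (adjusted p = 0.000103), Slco1a1 7.96 (adjusted p = 1.4e-08) and Elovl3 5.44 (adjusted p = 0.00048), which fell on low fat and rose on high fat. Cyp2b9 had -4.41 (adjusted p = 0.000153), Cyp2b13 -4.52 (adjusted p = 0.000683) and Slc22a27 -4.51 (adjusted p = 0.000103), which rose on low fat and fell on high fat. Several of these had groups under the dim threshold, so their values depend on background and offset.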

How the results depend on the processing

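The 32 named genes called for restriction kept their direction in every one of 27 alternatives, and 23 kept the call in all of them. The other 9 lost it at least once (70 of 864 values): Srebf2, 2010003K11Rik, Stard4, Sdf2l1, Fasn, C730036E19Rik, Crat, Mylip and Wfdc2. Between 13 and 16 cholesterol genes were shared under each alternative. Counts are given for restriction (224 in the reported fit), shared genes (217), the difference between diets (582) and diet (106). Leaving out 1 array at a time gave 134 to 358, 133 to 310, 270 to 672 and 23 to 142, and 111 of the 217 shared genes remained shared without each array in turn. Array weights gave 444, 395, 1450 and 319. Averaging the contrasts within diets gave 456 for restriction and 340 for diet on 12 arrays, and 679, 336 and 631 for restriction, shared genes and diet with the spread estimated from 18 arrays. Without LF 1 and LF+CR 1, the arrays high in Clps, the counts were 103, 103, 275 and 9, and without LF+CR 2 and HF 1 the difference between diets and diet gave 284 and 54. A clock covariate gave 951 for the difference between diets, and centring arrays on their median gave 69 for diet. With the replicate number as a block, the counts were 137, 137, 349 and 27. Whether the numbers pair the samples is not known. Of 18 same-numbered pairs, 2 had deviations correlated over 0.1 (r from -0.41 to 0.24). Pairs with different numbers were not compared, so these correlations cannot settle it. The other alternatives left these counts within 1.5 times of the reported ones. Genes near the dim threshold, such as Mvk and Mogat1, are limited by signal over background.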
